A study of Homo sapiens with 6 samples.

Results

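The genes described here are 55 human genes of DNA replication and S phase, chosen by name for their function. Earlier results of these data were known when they were chosen. They cover origin licensing, the MCM helicase and its activators, the sliding clamp and its loader, the replicative polymerases, single-strand binding, nucleotide supply, the E2F and cyclin E step of S-phase entry, and chromatin assembly behind the fork. All 55 symbols were found among the 62754 genes of the count table, and all 55 were among the 20992 genes that passed the filter on low counts and were tested.

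DNA replication begins when the origin recognition complex, CDC6 and CDT1 load the MCM helicase onto DNA in G1. The helicase is then activated by CDC45 and the GINS complex, and DNA polymerases tethered by the PCNA clamp copy both strands. Most of these genes are transcribed in late G1 and S phase under E2F factors, which are held in check by the retinoblastoma family of pocket proteins. SIN3/HDAC complexes are corepressors that have been found at E2F target promoters. HEK293 cells express the adenoviral E1A protein, which binds pocket proteins and thereby frees E2F.

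The study asked how gene expression changes in HEK293 cells, a human embryonic kidney line, when FAM60A is lost. FAM60A, now named SINHCAF, belongs to the SIN3 corepressor, which works through histone deacetylases. The comparison was between 3 control libraries and 3 FAM60A-knockout libraries of poly(A) RNA, all from cells grown in DMEM with fetal bovine serum. The knockout cells had received Cas9 with several guides against 3 regions of FAM60A and were kept as a puromycin-selected pool, not as a single clone; the labels name no vector or selection for the controls. The sample titles give HEK293 and the cell line field gives HEK293T. The labels do not say whether replicates are separate cultures, so the p-values measure only the spread between these libraries.

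Total counts were 88361827 to 93346824 per library, so counting error was small for every gene described, the lowest single count of any of the 55 genes being 370. FAM60A itself had 11028, 10165 and 12792 counts in control replicates 1 to 3 and 5684, 5793 and 5449 in the knockout replicates, a log2 fold change (log2FC, knockout over control) of -0.85 (SE 0.11, edgeR adjusted p = 0.00863). FAM60A transcript was thus lower in every knockout library and still counted in all of them. Control replicate 3 stood apart across the transcriptome: 1749 and 1726 genes differed at least 4-fold between it and control replicates 1 and 2, against 53 genes between those 2 libraries and 47 to 75 between knockout libraries. Between control replicate 3 and the knockout libraries the number was 828 to 900. Between control replicates 1 and 2 and the knockout libraries it was 1414 to 1551. By this count control replicate 3 was nearer to the knockout libraries than to the other controls. The cause was not tested. Values without control replicate 3, and against it alone, are therefore given beside many of the results. All 10 HEK293 marker genes examined were detected in every library, and their summed level was 1245 to 2013 CPM (counts corrected for library size and composition) in the controls and 1058 to 1189 CPM in the knockouts. The 6 markers of MDA-MB-231, the other line of the study, summed to 104 to 422 CPM in controls and 120 to 133 CPM in knockout libraries. Control replicate 3 had the lowest sum. The part of these differences in the results was not tested.

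Promoters of the replication genes were searched for the E2F motif, the sequence through which E2F factors bind, and examples are shown because a majority of the promoters examined held it. RefSeq promoter windows (GRCh38.p14, 300 bases around each start, mostly upstream) were found for 48 of the 55 genes, the others being RPA2, CCNE2, POLD3, MCM4, RPA3, GINS4 and MCM5. An exact E2F motif on either strand (TTTCCCGC, TTTGGCGC, TTTCGCGC or TTTGCCGC, of which a TTTGGCGC can overlap a TTTCGCGC on the other strand) was present in 27 of the 48 genes (56.2%) and in 3.99% of 27305 genes. The CCAAT box (CCAAT) was present in 31 of the 48 (64.6%) and in 39.7% of all genes. The cell-cycle homology region (CHR: TTTGAA or TTCGAA), a motif of later cell-cycle genes, was present in 3 of the 48 (6.25%) and in 19.5% of all genes. The windows below are those upstream of the start of 6 genes that passed the expression test, written 5′ to 3′ on the strand of the gene, with the matched letters in capitals.
MCM6, chr2:135876575-135876604, minus strand: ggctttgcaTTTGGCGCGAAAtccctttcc
MCM6, chr2:135876513-135876542, minus strand: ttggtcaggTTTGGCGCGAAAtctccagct
MCM3, chr6:52284898-52284927, minus strand: cggatggtacgTTTCCCGCcaccgcggggc
MCM7, chr7:100101566-100101595, minus strand: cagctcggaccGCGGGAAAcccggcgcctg
GINS2, chr16:85688967-85688996, minus strand: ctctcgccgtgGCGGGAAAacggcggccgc
POLA1, chrX:24693770-24693799, plus strand: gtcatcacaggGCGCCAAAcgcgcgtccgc
POLA2, chr11:65261898-65261927, plus strand: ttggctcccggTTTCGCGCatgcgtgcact

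The first capital letter lay 152 and 90 bases before the start in MCM6, 174 in MCM3, 187 in MCM7, 31 in GINS2, 137 in POLA1 and 53 in POLA2. In MCM6 each run of capitals holds overlapping matches on both strands. A match of letters is a description and not a measured binding site. Among the 27 genes with an E2F motif, 3 were called higher and 4 lower in knockout cells, with a median log2FC of -0.02 and a range of -0.82 to 0.70. Among the 21 genes whose window held none, 2 were called higher and 2 lower, with a median of 0.02 and a range of -0.64 to 0.78. Thus genes of either direction were found with and without the motif: MCM6 and GINS2, printed above, moved oppositely.

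The replication genes did not move as a block in FAM60A-knockout cells. Of the 55 genes, 11 (20%) passed the edgeR test (adjusted p of at most 0.05), against 16.6% of all genes tested. MCM6, RFC1, POLA1, POLA2 and RRM1 rose (5 genes, 9.09%, against 7.96% of all genes), and MCM3, MCM7, GINS2, CHAF1A, CHAF1B and DTL fell (6 genes, 10.9%, against 8.67% of all genes). The changes were small. By edgeR, 0 of the 55 genes were called with an absolute log2FC of at least 1, against 7.06% of all genes tested. By DESeq2 and limma-voom the number was also 0. At an unadjusted p under 0.05, regardless of size, edgeR had 19 of the 55, against 7249 of the 20992 genes tested. The median log2FC of the 55 genes was -0.02 (all genes -0.01), the median absolute log2FC was 0.31 (all genes 0.39), and 27 values were positive and 28 negative. The most negative was GINS2 (-0.82) and the most positive WDHD1 (0.78).

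**Figure D1:**
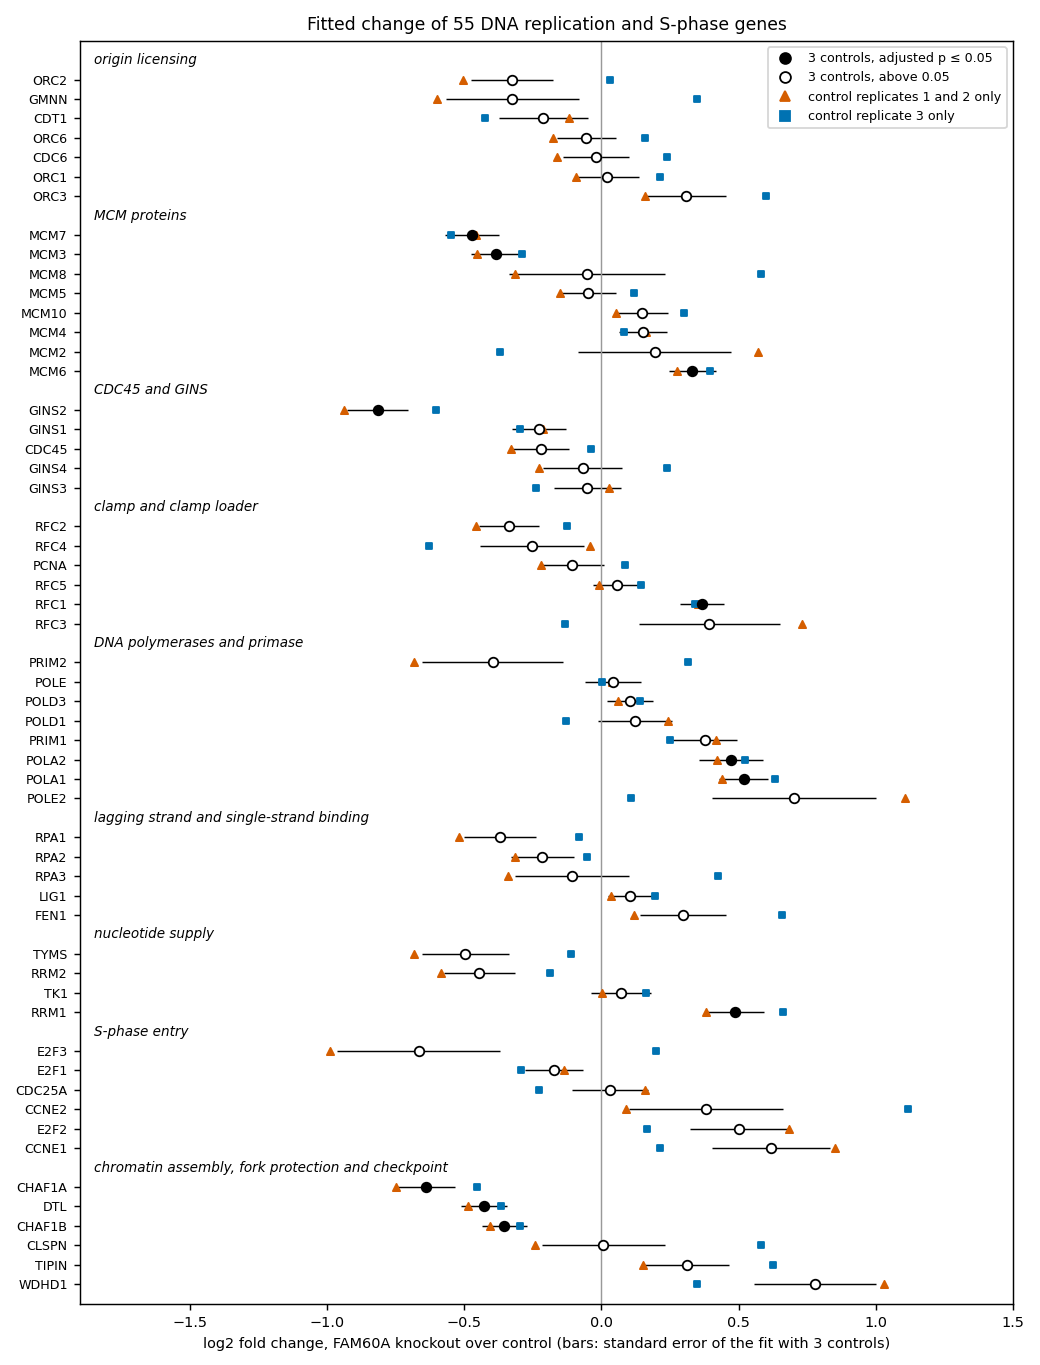
Fitted log2FC (knockout over control, horizontal axis) of the 55 replication genes grouped by role: circles with standard error bars for the fit with 3 controls (filled where called by edgeR), triangles for control replicates 1 and 2 only, squares for control replicate 3 only. The circles run from -0.82 (GINS2) to 0.78 (WDHD1), and for the 11 called genes all 3 marks lie on the same side of 0.

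**Figure D2:**
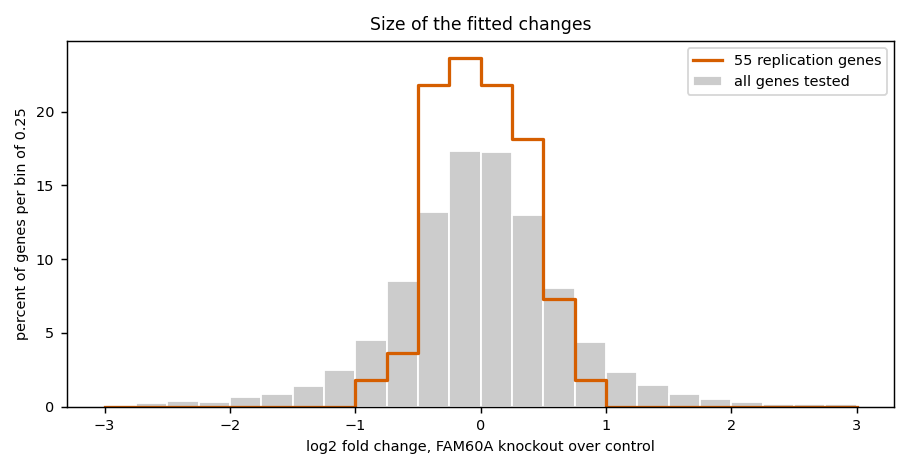
Percent of genes (vertical axis) per bin of log2FC (knockout over control, horizontal axis) for the 55 replication genes (line) and all 20992 genes tested (bars). The replication genes lie between -1 and 1, while 13.7% of all genes have an absolute fitted log2FC of at least 1.

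The calls depended on the processing and on single libraries. All 11 held with DESeq2, 9 with limma-voom (not MCM6 and POLA2), 7 without TMM scaling and 4 without the filter on low counts (GINS2, POLA1, RRM1 and CHAF1A). All 11 held without control replicate 3, only GINS2 held without control replicate 1 or without control replicate 2, and 0 held by edgeR without any given knockout library. In those last fits 13 to 16 of the 55 genes had an unadjusted p under 0.05, against 4954 to 5528 of the 21736 to 21873 genes tested. All 11 kept their direction in every alternative examined. Scaling mattered for the balance between directions: with library size alone in place of trimmed mean of M values (TMM) scaling, the median of all genes shifted to -0.12, and 1 replication gene was called higher (POLA1) and 9 lower, against 5 and 6 with TMM, while 1235 of 3903 called genes were higher, against 1671 of 3491.

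By the ranges of the libraries alone, 28 of the 55 genes (50.9%) had control and knockout CPM that did not overlap, against 41.6% of all genes. The knockout libraries were above all controls for 16 genes (ORC3, MCM4, MCM6, MCM10, RFC1, POLA1, POLA2, PRIM1, POLD3, POLE2, LIG1, RRM1, CCNE1, E2F2, TIPIN and WDHD1). They were below all controls for 12 genes (MCM3, MCM7, CDC45, GINS1, GINS2, RFC2, RPA1, TYMS, RRM2, CHAF1A, CHAF1B and DTL).

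**Figure D3:**
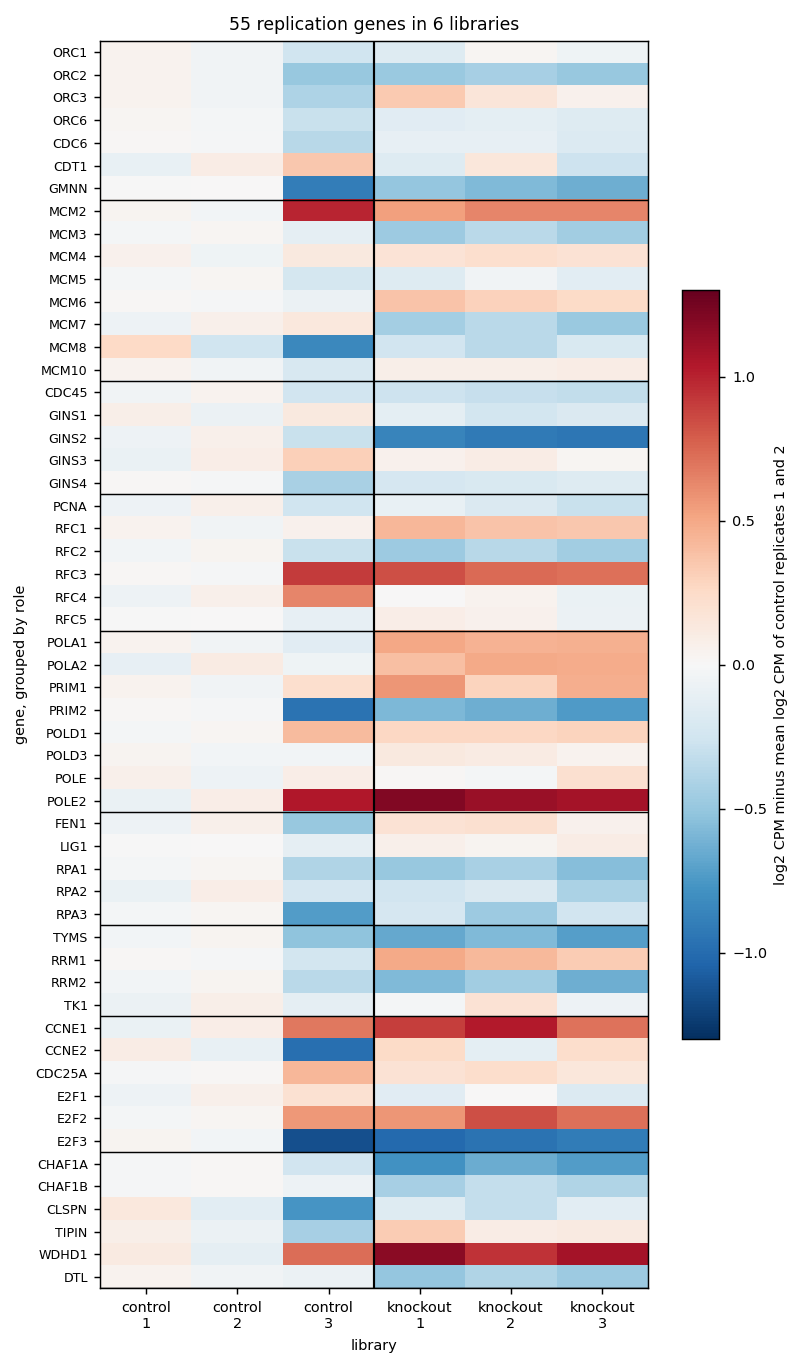
Level of each of the 55 replication genes (vertical axis, grouped by role) in each of the 6 libraries (horizontal axis), coloured by log2 CPM minus the mean log2 CPM of control replicates 1 and 2 (red higher, blue lower). Control replicate 3 is coloured like the knockout libraries in genes such as POLE2, E2F3 and PRIM2, and like the other controls in MCM3, RFC1, CHAF1B and DTL.

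Control replicate 3 was below both other controls for 36 of the 55 replication genes and above both for 18, whereas over all genes the numbers were nearly balanced (9285 below and 9501 above). Its distance from the mean of control replicates 1 and 2 had a median of 0.29 in absolute log2 CPM, against 0.49 for all genes, and reached 0.5 in 15 of the 55 (27.3%), against 49.3% of all genes. Control replicates 1 and 2 differed by a median of 0.09, at most 0.51 (MCM8), and the knockout libraries spanned a median of 0.13, at most 0.42 (CDT1). Without control replicate 3, edgeR called 36 of the 55 genes (65.5%), against 65.6% of all genes tested in that fit. Of the 55, 13 were higher (23.6%, against 32.4% of all genes) and 23 lower (41.8%, against 33.2%). With control replicate 3 as the only control, a comparison in which the lone library is assumed to vary like the knockouts, 29 were called (52.7%), against 47.5% of all genes. Here 17 were higher (30.9%, against 23.2% of all genes) and 12 lower (21.8%, against 24.3%).

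These fits share the knockout libraries, so their calls are not independent. Called lower in both were 7 genes (12.7%, against 11.8% of all genes): MCM3, MCM7, GINS1, GINS2, CHAF1A, CHAF1B and DTL. Called higher in both were 6 genes (10.9%, against 12.5%): MCM6, RFC1, POLA1, POLA2, RRM1 and WDHD1. The role groups described next hold 4 to 8 genes each, too few for their counts of calls to be read against the 16.6% of all genes.

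Among the 7 origin licensing genes, which load the helicase in G1, edgeR called 0 (0 at an unadjusted p under 0.05), as did DESeq2 and limma-voom. The log2FC values ran from -0.33 (ORC2) to 0.31 (ORC3), both subunits of the origin recognition complex, with a median of -0.06. CDC6, the ATPase that recruits CDT1 and MCM, had a log2FC of -0.02. GMNN, which encodes the CDT1 inhibitor geminin, was at 246 and 247 CPM in control replicates 1 and 2, 132 CPM in control replicate 3 and 159 to 174 CPM in the knockout libraries. The groups therefore overlapped for GMNN only because of control replicate 3, which lay below all knockout libraries. The log2FC of GMNN was -0.32, but -0.60 without control replicate 3 and 0.35 against it alone. For ORC2 the last 2 values were -0.50 and 0.03. Over the 7 licensing genes the median was -0.16 without that library and 0.21 against it alone. Without control replicate 3, edgeR called 0 of the 7 higher and 3 lower, against 32.4% and 33.2% of all genes.

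Among the 8 MCM genes, MCM6 rose while MCM3 and MCM7 fell, although their products stand in the same MCM2-7 ring. MCM7 (ENSG00000166508, chr7:99689856-99699563 in GRCh37, minus strand) was at 673, 736 and 774 CPM in control replicates 1 to 3 and at 517, 552 and 505 CPM in knockout replicates 1 to 3. Every knockout library lay below every control, with a log2FC of -0.47 (SE 0.10, adjusted p = 0.0261), and 7.9% of the exon bases of MCM7 are shared with genes on the opposite strand such as AP4M1. MCM3 (ENSG00000112118, chr6:52128812-52149679, minus strand) was at 526, 547 and 494 CPM in controls and 388, 421 and 393 CPM in knockout libraries. It fell by 0.38 on the log2 scale (SE 0.09, adjusted p = 0.0373), again with no overlap. MCM6 (ENSG00000076003, chr2:136597196-136634013, minus strand) was at 235, 232 and 222 CPM in controls and 302, 286 and 277 CPM in knockout libraries, so that every knockout library was the higher. Its log2FC was 0.33 (SE 0.08, adjusted p = 0.0444), and it kept this direction but not the call without TMM scaling (adjusted p = 0.109) and with limma-voom (adjusted p = 0.0692).

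MCM2, another subunit of the ring, turned with the choice of control. It was at 127, 121 and 245 CPM in control replicates 1 to 3 and at 180, 192 and 192 CPM in the knockout libraries. The knockout libraries lay between control replicate 3 and the other controls, and the log2FC was 0.19 (edgeR adjusted p = 0.657; 1.4e-06 to 0.983 over the alternatives). It was 0.57 without control replicate 3 and -0.37 against that library alone. For MCM2, 23.6% of the exon bases are shared with a gene on the opposite strand, and whether counting used strand is not given in the sources used here. MCM4, MCM5 and MCM10 had log2FC values of 0.15, -0.05 and 0.15. MCM8, a relative that acts in recombination, was the lowest of the 55 genes at 3.83 to 8.15 CPM, and 33.3% of its exon bases are shared with a gene on the same strand.

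**Figure D4:**
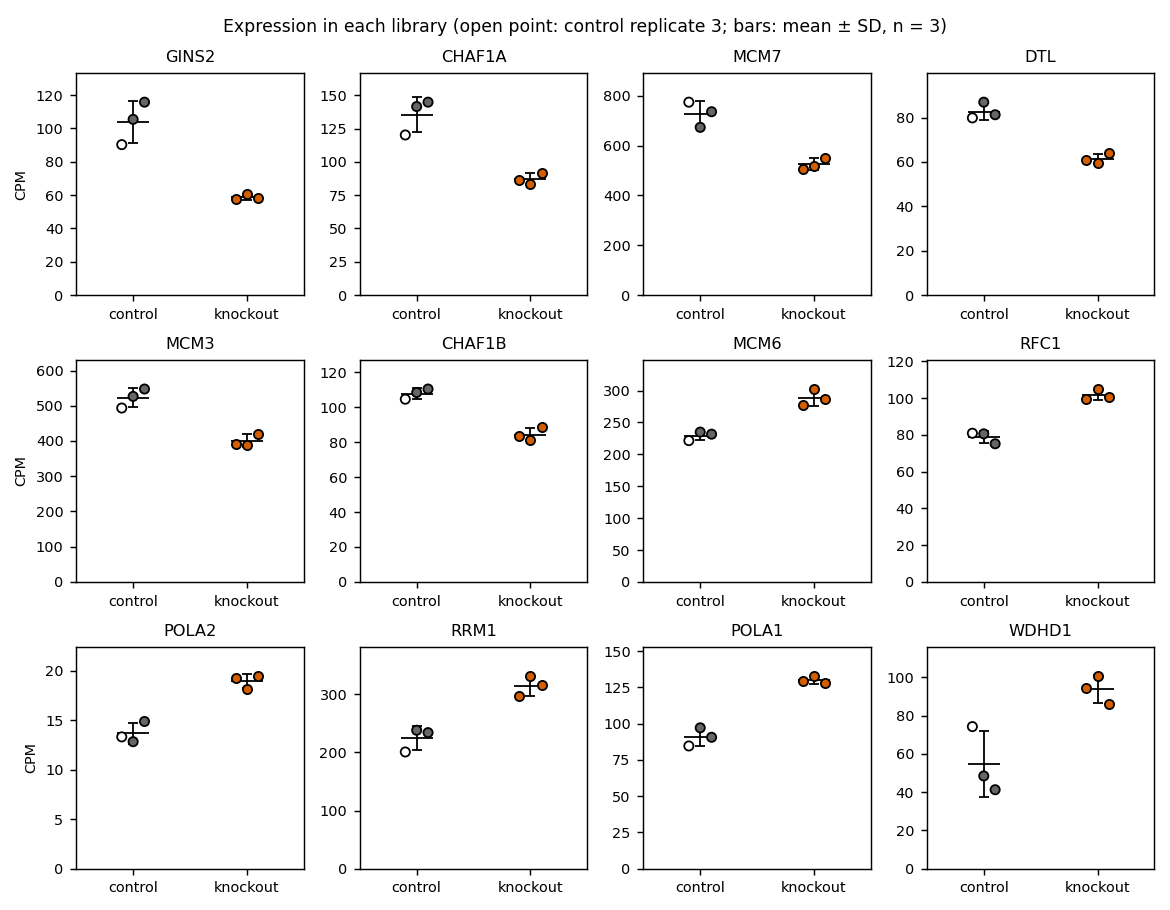
CPM in each library (points; control replicate 3 as an open point) with mean ± SD (n = 3) for the 11 called genes and WDHD1, each panel with its own axis from 0. GINS2, CHAF1A, MCM7, DTL, MCM3 and CHAF1B are lower and MCM6, RFC1, POLA2, RRM1, POLA1 and WDHD1 higher in all knockout libraries than in all controls.

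Of the CDC45 and GINS genes, whose products join MCM to form the active helicase, GINS2 fell furthest of all 55 genes. GINS2 (ENSG00000131153, chr16:85709804-85723679, minus strand) was at 105, 116 and 90.3 CPM in controls and 60.9, 58.4 and 57.6 CPM in knockout libraries. The knockout libraries agreed closely and all lay below control replicate 3, itself the lowest control. The log2FC was -0.82 (SE 0.11, edgeR adjusted p = 0.00987; 4.53e-10 to 0.0745 over the alternatives), or -0.94 without control replicate 3 and -0.60 against it alone. The other 4 genes did not pass the test, although all log2FC values were negative: -0.22 (CDC45), -0.23 (GINS1), -0.05 (GINS3) and -0.07 (GINS4). For CDC45 and GINS1 the groups did not overlap.

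Among the 6 clamp and clamp loader genes, edgeR called RFC1 alone, which rose. RFC1 (ENSG00000035928, chr4:39289076-39367995, minus strand), the large subunit of the loader that opens PCNA, was at 80.6, 75.1 and 80.9 CPM in controls and 105, 100.4 and 99.5 CPM in knockout libraries. The groups were well apart, with a log2FC of 0.37 (SE 0.08, adjusted p = 0.0309), which did not pass without TMM scaling. RFC2, a small loader subunit, was at 109, 114 and 91.3 CPM in controls and 80.3, 87.0 and 81.5 CPM in knockout libraries. Its groups did not overlap, and its log2FC of -0.34 (edgeR adjusted p = 0.0851; 1.59e-05 to 0.291 over the alternatives) passed as lower with DESeq2, without TMM scaling and without control replicate 3. PCNA, the clamp itself, was at 490, 533 and 426 CPM in controls and 479, 449 and 418 CPM in knockout libraries. These groups overlapped, and its log2FC was -0.11 (SE 0.12, adjusted p = 0.555). RFC3, another small subunit, was at 73.5 and 72.3 CPM in control replicates 1 and 2, 136 CPM in control replicate 3 and 119 to 130 CPM in the knockout libraries.

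Of the 8 polymerase and primase genes, both polymerase subunits of the polymerase alpha-primase complex, which starts each new strand, rose. POLA1 (ENSG00000101868, chrX:24711990-25015103, plus strand), the catalytic subunit, was at 97.1, 90.6 and 84.6 CPM in controls and 133, 128 and 129 CPM in knockout libraries. Its log2FC was 0.52 (SE 0.09, adjusted p = 0.0159), with no overlap. POLA2 (ENSG00000014138, chr11:65029384-65073430, plus strand), the accessory subunit, was at 12.8, 14.9 and 13.3 CPM in controls and 18.1, 19.5 and 19.3 CPM in knockout libraries. Its log2FC was 0.47 (SE 0.12, adjusted p = 0.0414); it did not pass without TMM scaling (adjusted p = 0.0759) or with limma-voom (adjusted p = 0.0603), and 16.8% of its exon bases are shared with a gene on the same strand.

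For PRIM2 and POLE2, control replicate 3 lay nearer to the knockout libraries than to the other controls. PRIM2, the large primase subunit, was at 57.3, 56.4 and 29.3 CPM in controls and 37.8, 36.5 and 34.2 CPM in knockout libraries. Its log2FC was -0.40 (adjusted p = 0.315), but -0.68 without control replicate 3 and 0.32 against that library alone, and 18.3% of its exon bases are shared with other genes on the same strand, PRIM2BP among them. POLE2, the second subunit of the leading-strand polymerase, was at 14.6, 16.4 and 31.9 CPM in controls and 35.8, 33.8 and 32.9 CPM in knockout libraries. Control replicate 3 thus reached nearly the knockout level, and the log2FC was 0.70 (adjusted p = 0.153), 1.11 without that library and 0.11 against it alone. POLE, its catalytic partner, had a log2FC of 0.04, POLD1 and POLD3 of the lagging-strand polymerase had 0.12 and 0.10, and PRIM1, the catalytic primase subunit, had 0.38 (adjusted p = 0.0759) with no overlap between groups.

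The 5 genes of Okazaki fragment maturation and single-strand binding held 0 calls by edgeR, DESeq2 and limma-voom (1 gene, RPA1, at an unadjusted p under 0.05). Without control replicate 3, edgeR called 0 of the 5 higher and 3 lower, against 32.4% and 33.2% of all genes. RPA1, the large subunit of the single-strand binding protein, was at 300, 309 and 232 CPM in control replicates 1 to 3 and 207 to 227 CPM in the knockout libraries. Its log2FC was -0.37 (adjusted p = 0.103), -0.52 without control replicate 3 and -0.08 against that library alone. FEN1, the flap nuclease, and LIG1, the ligase that joins the fragments, had log2FC values of 0.30 and 0.11.

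In nucleotide supply, the subunits of ribonucleotide reductase, which makes deoxynucleotides, went in opposite directions, although only RRM1 passed the test. RRM1 (ENSG00000167325, chr11:4115937-4160162, plus strand), the large subunit, was at 238, 234 and 201 CPM in controls and 332, 316 and 297 CPM in knockout libraries. Its log2FC was 0.49 (SE 0.11, adjusted p = 0.0287), which did not pass without TMM scaling. RRM2, the small subunit whose level follows S phase, was at 344, 363 and 277 CPM in controls and 238, 257 and 227 CPM in knockout libraries. The groups did not overlap, and the log2FC was -0.44 (SE 0.13, adjusted p = 0.0615; 1.61e-06 to 0.218 over the alternatives); RRM2 passed with DESeq2, with limma-voom, without TMM scaling and without control replicate 3. TYMS, thymidylate synthase, had a log2FC of -0.50 (adjusted p = 0.0804), and 47.9% of its exon bases are shared with ENOSF1 and TYMSOS on the opposite strand. TK1, thymidine kinase, had 0.07.

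The 6 genes of S-phase entry held 0 calls by edgeR, DESeq2 and limma-voom (2 genes by edgeR at an unadjusted p under 0.05). Without control replicate 3, edgeR called 2 of the 6 higher and 1 lower, against 32.4% and 33.2% of all genes. E2F3, an activating E2F factor, was at 140, 132 and 61.5 CPM in controls and 67.6, 69.9 and 72.5 CPM in knockout libraries. Control replicate 3 was lower than every knockout library and the other controls were well above all of them, and the log2FC was -0.67 (SE 0.30, adjusted p = 0.168), -0.99 without control replicate 3 and 0.20 against it alone. CCNE2, cyclin E2, which activates CDK2 at the G1/S boundary, was at 39.8, 34.7 and 18.8 CPM in controls and 44, 34.0 and 43.5 CPM in knockout libraries. Its groups overlapped, with a log2FC of 0.38 (adjusted p = 0.377), 0.09 without control replicate 3 and 1.12 against it alone. For CCNE2, 37.1% of the exon bases are shared with genes on the opposite strand, INTS8 among them. CCNE1 was at 32.6, 36.5 and 55.4 CPM in controls and 56.5 to 70.5 CPM in knockout libraries, a log2FC of 0.62 (adjusted p = 0.0966). E2F1, E2F2 and the phosphatase gene CDC25A had log2FC values of -0.17, 0.50 and 0.03.

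In the group of chromatin assembly, fork protection and checkpoint genes, 3 of 6 fell by edgeR, and 0 of 6 were called with the replicate block. The group is too small for this count to be read against the 8.67% of all genes called lower. CHAF1A and CHAF1B encode the large and middle subunits of CAF-1, which deposits histones H3 and H4 on new DNA. CHAF1A (ENSG00000167670, chr19:4402637-4445015, plus strand) was at 142, 145 and 120 CPM in controls and 83.1, 91.9 and 86.4 CPM in knockout libraries. It fell by 0.64 on the log2 scale (SE 0.11, adjusted p = 0.0146), and the lowest control was still well above the highest knockout library. CHAF1B (ENSG00000159259, chr21:37757690-37791313, plus strand) was at 108, 111 and 105 CPM in controls and 81.2, 88.6 and 83.5 CPM in knockout libraries. It fell by 0.35 (SE 0.08, adjusted p = 0.0349), also with no overlap.

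DTL (ENSG00000143476, chr1:212208895-212280742, plus strand), the adaptor through which the CRL4 ubiquitin ligase destroys CDT1 in S phase, was at 86.9, 81.3 and 79.8 CPM in controls and 59.5, 63.9 and 60.8 CPM in knockout libraries. It fell by 0.43 (SE 0.08, adjusted p = 0.0224), and control replicate 3 lay with the other controls. WDHD1, which couples polymerase alpha to the helicase, was at 48.5, 41.3 and 74.2 CPM in controls and 101, 86.0 and 94.4 CPM in knockout libraries. All knockout libraries were above all controls, with control replicate 3 between, and the log2FC of 0.78 (SE 0.22) missed the threshold (edgeR adjusted p = 0.0604; 1.54e-09 to 0.201 over the alternatives). It was 1.03 without control replicate 3 and 0.35 against that library alone. CLSPN and TIPIN, which act in the replication checkpoint, had log2FC values of 0.01 and 0.31. Without control replicate 3 these were -0.24 and 0.15, and against that library alone 0.58 and 0.63.

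By mean CPM over the 6 libraries the most counted of the 55 genes were MCM7 (626), PCNA (466), MCM3 (461), RRM2 (284) and RRM1 (270). Per kilobase of annotated exon, which is the scale on which levels of different genes can be compared, PCNA was highest at 332 CPM per kb, followed by MCM3 at 127 and MCM7 at 126, while RRM1 was at 63.7 and RRM2 at 31.1. The length used is the union of all annotated exons, which lowers the value of genes with long rare exons.

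Ratios of counts of genes that act together were taken within each library, where the scaling factor cancels; the 9 pairs were chosen after the single-gene values had been seen, so no test is given. The ratio of RRM2 to RRM1 was 1.44, 1.55 and 1.38 in control and 0.717, 0.815 and 0.767 in knockout libraries (1.46 ± 0.09 against 0.766 ± 0.05, SD, n = 3). Within the helicase, the ratio of MCM7 to MCM6 was 3.18 ± 0.32 in control and 1.82 ± 0.11 in knockout libraries, and that of MCM3 to MCM6 was 2.28 ± 0.07 and 1.39 ± 0.10. For CAF-1, the ratio of CHAF1B to CHAF1A was 0.800 ± 0.06 and 0.969 ± 0.01. In these 4 pairs the groups did not overlap, so control replicate 3 also lay outside the knockout range. For RRM2 to RRM1, MCM7 to MCM6 and MCM3 to MCM6 this follows from the single genes. Their CPM ranges already lay apart, in opposite directions.

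In the other 5 pairs the groups overlapped. The ratio of POLA2 to POLA1, both of which rose, was 0.151 ± 0.02 in control and 0.146 ± 0.01 in knockout libraries. The ratio of PRIM2 to PRIM1 was 1.41 and 1.48 in control replicates 1 and 2 but 0.643 in control replicate 3, within the 0.628 to 0.760 of the knockout libraries. The ratio of GMNN to CDT1 likewise had 2.98 and 2.60 in control replicates 1 and 2 and 1.17 in control replicate 3, below the 1.69 to 2.20 of the knockout libraries.

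**Figure D5:**
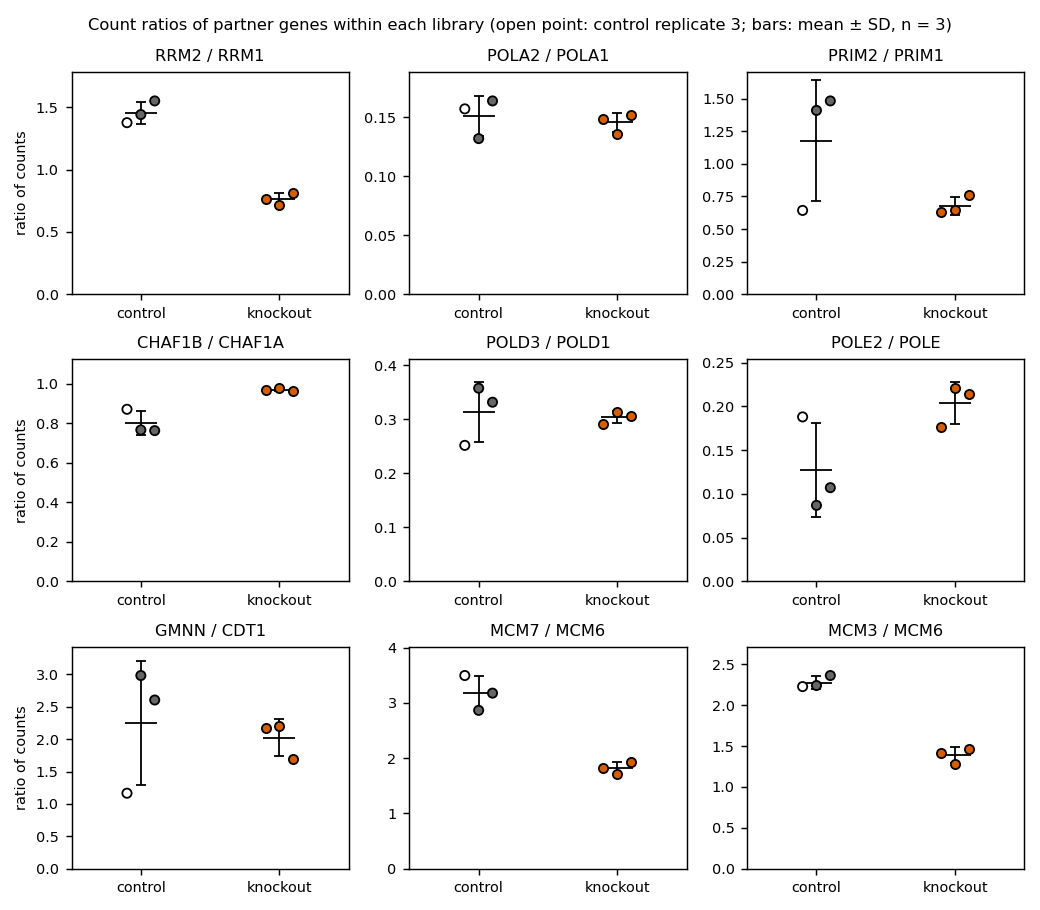
Ratio of counts of paired replication genes (vertical axes, from 0) in each library, with mean ± SD (n = 3) for control and knockout and control replicate 3 as an open point. RRM2 to RRM1, MCM7 to MCM6 and MCM3 to MCM6 are lower and CHAF1B to CHAF1A higher in all knockout libraries, while the other pairs overlap.

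Summed over all 55 genes, replication transcripts made up 0.705% to 0.764% of the counts in control and 0.640% to 0.664% in knockout libraries. After TMM scaling the control libraries summed to 7164 ± 311 CPM and the knockout libraries to 6777 ± 172 CPM (SD, n = 3), and control replicate 3 (6816 CPM) lay within the knockout range of 6581 to 6907 CPM. The separation of the groups seen in the raw shares was therefore not kept in this sum after scaling. It was kept in the median CPM of the 55 genes, 91.3 to 99.0 in control and 83.4 to 88.6 in knockout libraries. The summed CPM of MCM2 to MCM7 was also apart, at 1995 to 2154 in control and 1808 to 1910 in knockout libraries. MKI67, TOP2A and CCNB1, markers of proliferating cells, summed to 1080 to 1452 CPM in control libraries, lowest in control replicate 3, and to 1021 to 1066 CPM in knockout libraries. Their part in the levels of the replication genes was not tested. In bulk RNA, fewer cells in S phase and less of these transcripts per cell cannot be told apart.

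Of 43 other tested replication genes, 7 (16.3%, close to the 16.6% of all genes) passed the test, 4 higher and 3 lower, with log2FC values from -0.86 to 0.80. DSCC1, part of the alternative clamp loader that acts in sister chromatid cohesion, rose from 42.5, 41.7 and 41.7 CPM to 76.7, 69.4 and 73.3 CPM (log2FC 0.80, SE 0.08, adjusted p = 0.0054), and control replicate 3 matched the other controls. RECQL4, a helicase needed for origin firing, rose by 0.68, and DUT, the enzyme that removes dUTP, by 0.57. FBXO5, the inhibitor of the anaphase-promoting complex, fell by 0.86 and RTF2, a protein of stalled forks, by 0.74.

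Among 19 genes of E2F factors, pocket proteins and their partners, 5 (26.3%, against 16.6% of all genes) passed, 4 lower and 1 higher, with a median log2FC of -0.21. E2F4 and E2F6, E2F factors known mainly as repressors, fell by 0.65 and 0.82. The E2F4 levels were 115, 128 and 115 CPM in controls and 75.3, 76.0 and 77.6 CPM in knockout libraries, with no overlap and with control replicate 3 among the controls. RBL2, the pocket protein p130, fell by 0.51 and FOXM1, an activator of later cell-cycle genes, also by 0.51. LIN37, a subunit of the DREAM complex that p130 and E2F4 belong to, rose by 0.90 at 5.26 to 13.2 CPM. E2F1, E2F2 and E2F3, the activating E2F genes described above, did not pass.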

How the data were processed

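Poly(A) RNA of 3 control and 3 FAM60A-knockout HEK293 libraries was sequenced by the authors, who deposited a table of raw read counts per Ensembl gene, not normalised. The submitters' processing notes name STAR (2.7.10b), featureCounts (2.0.0) and hg38, while the study's methods name Trimmomatic and Salmon and the extraction label names hg19; annotation release and strand setting are not given in the sources used here. Groups came from the sample labels.

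Counts were analysed with edgeR (4.0.16) in R (4.3.3): filterByExpr with a minimum count of 10, TMM scaling, quasi-likelihood test and Benjamini-Hochberg adjustment over 20992 genes, called at an adjusted p of at most 0.05, two-sided. CPM are counts scaled by library size and TMM factor, and log2 CPM used a prior count of 2. Every adjusted p is from edgeR unless another tool is named. Alternatives were DESeq2 (1.42.0), limma-voom (3.58.1) with quantile normalisation, library size without TMM, no filter, at least 10 counts in every library, the replicate number as a block, leaving out each library and, chosen after seeing the data, control replicate 3 as the only control. The 9 ratios of partner genes were also chosen after seeing the data. Scripts were tested on simulated data.

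The genes and lists were chosen with earlier results of these data known. Values per library are given for genes passing the test, topped up to 12 by absolute log2FC, for the 5 genes with control replicate 3 farthest from the other controls and for the 5 with the highest CPM, which makes 19 genes, and of the other lists for at most 6 passing genes each. Values of GMNN, RFC2, RFC3, RPA1, CCNE1, MCM8 and the near misses of the test were added after they were seen. RNASEH2A did not pass the filter. The values of 1 gene of these lists are not reported here. Gene coordinates and exon lengths are from GENCODE v44 lifted to GRCh37, promoter sequences from RefSeq GRCh38.p14. Depth was similar in all libraries, but for some genes, such as GINS4, the spread between knockout libraries was no wider than counting error. Of the 55 genes, 5 share over 10% of exon bases with a gene on the same strand and 6 with a gene on the opposite strand. Annotated pseudogenes named as the gene symbol followed by P and a number exist for 11. The counts of all these genes may include reads of those overlapping genes or pseudogenes.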

Additional observations from a re-analysis of the deposited data

How the results depend on the processing

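With 88361827 to 93346824 counts per library, depth limits these values less than the 3 libraries per group do. Against 11 replication genes called, there were 16 with DESeq2 (all 11 kept) and 10 with limma-voom (9 kept), 4 without the filter (4 kept) and 29 with control replicate 3 as the only control. Leaving out single libraries gave 0 to 36, with the 36 from the fit without control replicate 3. Over all genes the 3491 calls became 5581 with DESeq2 and 10616 with control replicate 3 as the only control, and 167 to 14221 without single libraries. The other replication genes (7 calls) had 14 and 24 in these 2 settings and 0 to 30 without single libraries, and the E2F and pocket protein genes (5 calls) had 10, 11 and 0 to 14. Calls with an absolute log2FC of at least 1 (0 of 55) became 1 with control replicate 3 as the only control, and 0 to 2 without single libraries. The median log2FC (-0.02) became 0.14 with control replicate 3 as the only control and -0.13 without TMM. FAM60A stayed between -0.92 and -0.78 without single libraries, but with adjusted p up to 0.0736. Against control replicate 3 alone, 15 of the 55 log2FC values changed sign, among the 19 genes with values per library those of MCM2 (-0.37), PCNA (0.085), PRIM2 (0.32) and E2F3 (0.20). The cause was not tested.

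The replicate numbers did not pair the libraries: the deviations of same-numbered libraries correlated at 0.0101, 0.0306 and -0.0362, and not every library correlated best with its own number. With the replicate block, edgeR called 0 of the 55 genes and 407 of all genes. At an unadjusted p under 0.05 it had 21 of the 55, against 6388 of the 20992 genes tested. It called 1 of the other replication genes and 0 of the E2F and pocket protein genes (10 unadjusted), and FAM60A had -0.84 (adjusted p = 0.0551).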
